A study of Rattus norvegicus with 9 samples.

Results

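MHC class I processing and the immunoproteasome were followed through 9 genes in whole rat liver. They were B2m, Tap1, Tap2, Tapbp, Psmb8, Psmb9, Psmb10, Psme1 and Psme2, and they were taken by symbol from the 14377 genes with a symbol of their own on the array. Together they had 11 of the 31042 probe sets tested, each carrying 1 gene symbol, and the probe set with the highest mean signal stood for each gene. Livers came from male Sprague-Dawley rats in 3 groups of 3. Vehicle rats received the carrier, without CCl4 or rottlerin. CCl4 rats received the hepatotoxin carbon tetrachloride in olive oil by intraperitoneal injection for 8 weeks, which scars the liver. CCl4+Rot rats received the same CCl4 and, 2 weeks after the first injection, intraperitoneal rottlerin at 2.5 mg/kg, used in the study as an activator of the large-conductance calcium-activated potassium (BK) channel. Rottlerin is known to act on other proteins too, and no group received rottlerin without CCl4.

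Class I molecules show peptides from inside the cell to CD8 T cells. The proteasome cuts cytosolic proteins into peptides, and in the immunoproteasome the catalytic subunits Psmb8, Psmb9 and Psmb10 take the places of Psmb5, Psmb6 and Psmb7, while Psme1 and Psme2 form the PA28 cap that opens the particle. Tap1 and Tap2 carry the peptides into the endoplasmic reticulum, Tapbp (tapasin) helps load them onto the heavy chain, and B2m is the light chain that completes the molecule. Interferons are the best known inducers of these genes, and leukocytes carry more of them than resting hepatocytes do.

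In the RefSeq annotation of the rat genome (build GRCr8), Tap2, Psmb8, Tap1 and Psmb9 follow each other on chromosome 20, which also holds Tapbp. Tap1 and Psmb9 point away from each other with 456 bases between their start sites. Psme1 and Psme2 lie on chromosome 15 with Emc9 between them, B2m on chromosome 3 and Psmb10 on chromosome 19.

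Promoter sequences from RefSeq were available for all 9 genes. Each was searched from 250 bases before to 50 bases after the start site, on both strands and allowing overlaps, for GAAANNGAAA, the core of the interferon-stimulated response element that IRF proteins bind. These letters were present in 7 of the 9 promoters and in 3.92% of all 33469 rat promoters of the same length. The stretches that hold them are shown 5′ to 3′ on the gene's own strand because the genes are best known as interferon targets. Capitals mark the match, which reads as TTTCNNTTTC where it lies on the opposite strand.

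B2m, chr3:129549165-129549204, plus strand: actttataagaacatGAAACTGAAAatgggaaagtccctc
Tap1, chr20:4668640-4668679, minus strand: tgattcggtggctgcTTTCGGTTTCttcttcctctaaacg
Tap2, chr20:4652313-4652352, minus strand: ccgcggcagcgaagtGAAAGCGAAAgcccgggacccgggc
Tapbp, chr20:4967878-4967918, minus strand: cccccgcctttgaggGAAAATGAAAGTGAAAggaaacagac
Psmb8, chr20:4657026-4657050, minus strand: tcttggtgctgtggcTTTCGCTTTC
Psmb10, chr19:50743293-50743380, minus strand: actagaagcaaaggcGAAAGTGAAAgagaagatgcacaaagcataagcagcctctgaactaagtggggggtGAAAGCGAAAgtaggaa
Psme2, chr15:33052780-33052819, minus strand: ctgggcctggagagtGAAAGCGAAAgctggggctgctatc

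Tapbp held 2 overlapping matches and Psmb10 held 2 separate ones. The Psmb8 match began 4 bases before the start site and ran across it. The Tap1 match lay 121 bases before the Tap1 start, inside the stretch between Tap1 and Psmb9. The letters were not in the windows of Psmb9 and Psme1, nor in those of Psmb5, Psmb6 and Psmb7. A match is a description of the letters and not a measured binding site.

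Signals are log2 values, on which a difference of 1 is a doubling, and each array also gave a call of present or absent for every probe set. All 9 genes were called present on every array except Tap1 on the CCl4 replicate 3 array. That array had the fewest probe sets called present, 12714, against 15550 to 16849 on the other arrays. Where its omission moved a stated member difference by over 1.5 times, the value without it is also given. A gene was called different when limma gave an adjusted p below 0.05 over all 31042 probe sets and the change was at least 1.5-fold. Centring each array on its own median would add -0.36 to every gene's CCl4 minus vehicle difference in mean log2 signal, 0.25 to every CCl4+Rot minus CCl4 difference and -0.11 to every CCl4+Rot minus vehicle difference. The CCl4 replicate 3 array had a median of 7.81, against 6.79 to 7.01 on the other arrays. Over probe sets present on every array its median was 9.53, against 9.51 to 9.58 on the others. The p-values measure the spread between these rats, and in bulk tissue fewer cells of a type cannot be told apart from less RNA per cell.

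No member was called in any of the 3 comparisons. limma called 0% of probe sets between CCl4 and vehicle, 0.00322% between CCl4+Rot and CCl4 and 0.0258% between CCl4+Rot and vehicle, so there were few calls anywhere on the array. A robust limma fit, in which the spread follows the signal, also called 0 members, with a smallest adjusted p of 0.155 (Psmb9, CCl4+Rot against vehicle). At an unadjusted limma p below 0.05 the members numbered 0 between CCl4 and vehicle, 2 between CCl4+Rot and CCl4 (Psmb8 and Tap1) and 1 between CCl4+Rot and vehicle (Psmb9). Of all genes, 13.5%, 5.5% and 9.79% passed the same limit. The methods' t-test at an unadjusted limit with 1.5-fold passed 1 member, Psmb8, between CCl4+Rot and CCl4, and 0 after Benjamini-Hochberg adjustment.

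**Figure D1:**
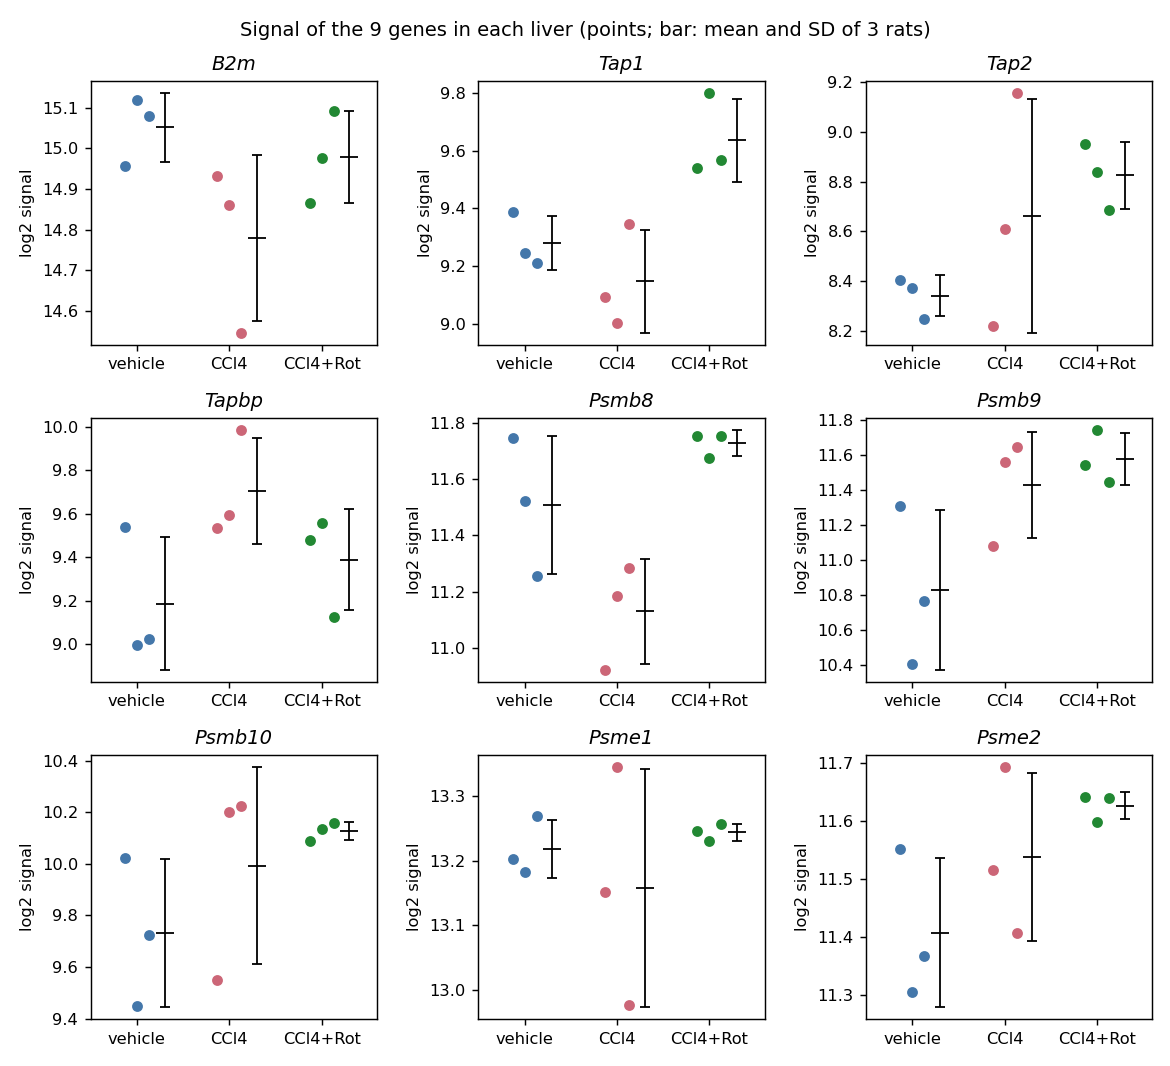
Log2 signal of each of the 9 genes (y axis, a scale of its own for each gene) in the vehicle, CCl4 and CCl4+Rot livers, with 1 point per rat in replicate order and a bar for the mean and SD of 3 rats. Psmb8 and Tap1 show all CCl4+Rot livers above all CCl4 livers, and the CCl4+Rot points of Psmb8, Psmb10, Psme1 and Psme2 lie close together.

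Psmb8, the immunoproteasome subunit that replaces Psmb5, read 11.75, 11.52 and 11.25 in the vehicle livers, 10.92, 11.18 and 11.28 in the CCl4 livers and 11.76, 11.67 and 11.75 in the CCl4+Rot livers. Every CCl4+Rot liver was above every CCl4 liver, whereas vehicle overlapped with both. CCl4+Rot exceeded CCl4 by 0.60 (log2; SE 0.19; 95% confidence interval 0.16 to 1.03), which is 1.51-fold, with an unadjusted limma p of 0.0134 and an adjusted p of 0.724. CCl4 differed from vehicle by -0.38 (95% interval -0.81 to 0.06; limma adjusted p 0.454). Without CCl4 replicate 3, CCl4+Rot exceeded CCl4 by 0.68.

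Psmb9, which replaces Psmb6 and is encoded next to Tap1, had another order. Its signal was 11.31, 10.41 and 10.77 in vehicle, 11.08, 11.56 and 11.64 under CCl4 and 11.54, 11.74 and 11.45 under CCl4+Rot. The CCl4 livers overlapped with both other groups, and every CCl4+Rot liver was above every vehicle liver. The differences were 0.60 for CCl4 minus vehicle (95% interval -0.04 to 1.23; limma adjusted p 0.426), 0.15 for CCl4+Rot minus CCl4 (adjusted p 0.901) and 0.75 for CCl4+Rot minus vehicle (95% interval 0.11 to 1.38; adjusted p 0.504). CCl4 minus vehicle was 0.39 without vehicle replicate 4. With CCl4 replicate 1 left out, CCl4+Rot minus CCl4 was -0.024, and with CCl4 replicate 3 left out it was 0.26. It was 0.069 with CCl4+Rot replicate 5 left out and 0.078 after quantile normalisation.

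Psmb10, the partner that replaces Psmb7, read 10.02, 9.45 and 9.73 in vehicle, 9.55, 10.20 and 10.22 under CCl4 and 10.09, 10.14 and 10.16 under CCl4+Rot. The CCl4 livers spanned nearly the whole range, with replicate 1 low, and the CCl4+Rot livers were above every vehicle liver. CCl4+Rot minus vehicle was 0.40 (95% interval -0.17 to 0.96), or 0.25 without vehicle replicate 4. CCl4+Rot minus CCl4 was 0.14, or -0.085 without CCl4 replicate 1 and 0.25 without CCl4 replicate 3. Neither of the neighbouring levels in the order vehicle, CCl4, CCl4+Rot differed beyond the spread.

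The group means of the constitutive partners lay closer together. Psmb5 had mean log2 signals of 12.06 in vehicle, 12.07 under CCl4 and 11.96 under CCl4+Rot, and Psmb7 had 10.64, 10.71 and 10.63, with overlapping groups in all comparisons. Psmb6 was not analysed here. Because a difference between a pair of genes on the same array does not change with the scaling of the array, it was also taken within each liver. The level of such a difference depends on the probes, so it is read only for its change between groups.

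Psmb8 minus Psmb5 was -0.33, -0.59 and -0.73 in the vehicle livers, -1.42, -0.71 and -0.68 in the CCl4 livers and -0.24, -0.26 and -0.20 in the CCl4+Rot livers. The CCl4+Rot livers were above all 6 others. The change from CCl4 to CCl4+Rot was 0.70 (exact two-sided permutation test, p = 0.1, the smallest p that 3 against 3 allows), and CCl4 replicate 1 lay farthest from the rest. Psmb10 minus Psmb7 averaged -0.91 in vehicle, -0.72 under CCl4 and -0.50 under CCl4+Rot, and it separated only CCl4+Rot from vehicle.

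A pair chosen after the values were seen, and so not tested, was Psmb8 minus Psmb9. It was 0.44, 1.12 and 0.49 in vehicle, -0.16, -0.38 and -0.36 under CCl4 and 0.21, -0.07 and 0.31 under CCl4+Rot. All 3 groups were apart, with vehicle highest, CCl4 lowest and CCl4+Rot between them. The means were 0.68 ± 0.38 (SD, n = 3) in vehicle, -0.30 ± 0.12 under CCl4 and 0.15 ± 0.19 under CCl4+Rot. On the chromosome Tap1 lies between these genes.

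**Figure D2:**
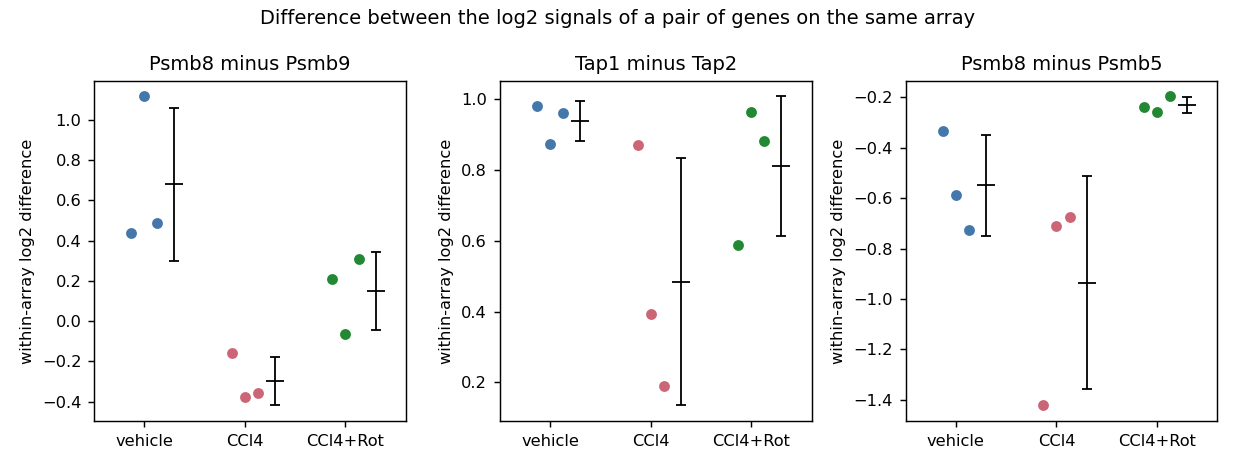
Within-array difference of log2 signal for Psmb8 minus Psmb9, Tap1 minus Tap2 and Psmb8 minus Psmb5 (y axis) by group, with 1 point per rat and the mean and SD of 3 rats. The 3 groups do not overlap for Psmb8 minus Psmb9, where the CCl4 livers lie between -0.38 and -0.16.

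The transporter genes also had different orders of their group means. Tap1 read 9.39, 9.24 and 9.21 in vehicle, 9.09, 9.00 and 9.35 under CCl4 and 9.54, 9.80 and 9.57 under CCl4+Rot, so that every CCl4+Rot liver was above all 6 others. CCl4+Rot exceeded CCl4 by 0.49 (SE 0.17; 95% interval 0.10 to 0.88; unadjusted limma p 0.0209, adjusted p 0.724) and vehicle by 0.36 (95% interval -0.04 to 0.75; adjusted p 0.659). CCl4 and vehicle overlapped, with a difference of -0.13, or -0.23 without CCl4 replicate 3. Without CCl4 replicate 3, where Tap1 was not called present, CCl4+Rot exceeded CCl4 by 0.59.

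Tap2 had the lowest signal of the 9 genes, in the bottom 19.3% of genes present on every array. It read 8.41, 8.37 and 8.25 in vehicle, 8.22, 8.61 and 9.16 under CCl4 and 8.95, 8.84 and 8.69 under CCl4+Rot. The CCl4 livers were wide apart and overlapped with both groups, while all CCl4+Rot livers were above vehicle by a mean of 0.48 (95% interval -0.09 to 1.06; limma adjusted p 0.700). Tap2 differed between CCl4+Rot and CCl4 by 0.16, and by -0.059 without CCl4 replicate 1 or 0.41 without CCl4 replicate 3. Leaving out CCl4+Rot replicate 4 made it 0.099. Tap1 minus Tap2, also chosen after the values were seen, averaged 0.94 in vehicle, 0.48 under CCl4 and 0.81 under CCl4+Rot, and CCl4+Rot overlapped with both other groups.

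Tapbp was the only member whose mean was lower in CCl4+Rot than in CCl4. Its signal was 9.54, 9.00 and 9.03 in vehicle, 9.54, 9.59 and 9.98 under CCl4 and 9.48, 9.56 and 9.12 under CCl4+Rot, with overlap between CCl4+Rot and each other group. The CCl4 livers exceeded vehicle by 0.52 (95% interval -0.02 to 1.06; limma adjusted p 0.422), with the lowest CCl4 liver just under the highest vehicle liver. CCl4+Rot minus CCl4 was -0.32 (95% interval -0.86 to 0.22; adjusted p 0.783), or -0.18 without either CCl4 replicate 3 or CCl4+Rot replicate 6.

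B2m was among the brightest genes on the array, above 99.6% of genes present on every array. Its chosen probe set read 14.96, 15.12 and 15.08 in vehicle, 14.93, 14.86 and 14.55 under CCl4 and 14.87, 14.98 and 15.09 under CCl4+Rot. Every CCl4 liver was below every vehicle liver, by a mean of 0.27 (CCl4 minus vehicle -0.27; 95% interval -0.66 to 0.12; limma adjusted p 0.537), or -0.16 without CCl4 replicate 3. After quantile normalisation it was -0.064. CCl4+Rot overlapped with both. A second B2m probe set, dimmer and so less near the top of the scale, averaged 13.35 in vehicle, 12.90 under CCl4 and 13.44 under CCl4+Rot. It placed all CCl4 livers below all vehicle and all CCl4+Rot livers, with differences of -0.45 for CCl4 minus vehicle (unadjusted limma p 0.0526, adjusted p 0.409) and 0.54 for CCl4+Rot minus CCl4 (unadjusted p 0.026, adjusted p 0.736).

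The PA28 genes varied least, with a range over the 9 arrays of 0.37 for Psme1 and 0.39 for Psme2. Psme1 averaged 13.22 ± 0.045 (SD, n = 3) in vehicle, 13.16 ± 0.18 under CCl4 and 13.24 ± 0.013 under CCl4+Rot, with overlapping groups and 95% intervals of -0.42 to 0.30 for CCl4 minus vehicle and -0.27 to 0.45 for CCl4+Rot minus CCl4. Its second probe set, which the table places on another chromosome, had an absent call on every array, so that no fold was taken from it. Psme2 read 11.55, 11.30 and 11.37 in vehicle, 11.51, 11.69 and 11.41 under CCl4 and 11.64, 11.60 and 11.64 under CCl4+Rot. All CCl4+Rot livers exceeded all vehicle livers, by a mean of 0.22 (95% interval -0.14 to 0.58), and CCl4 overlapped with both.

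**Figure D3:**
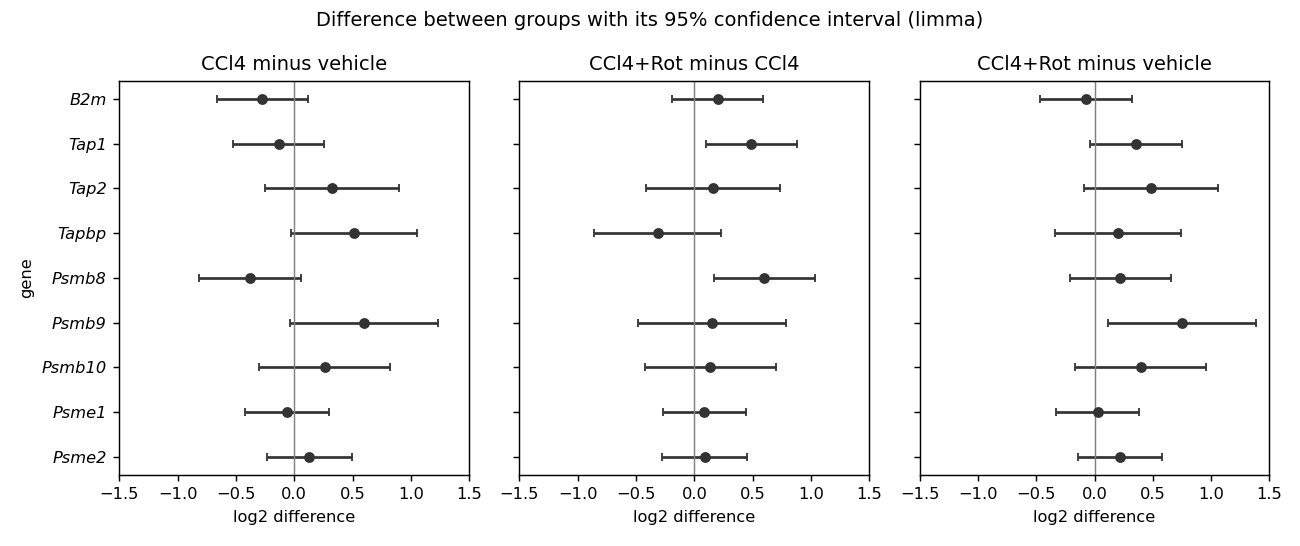
Log2 difference between groups (x axis) for each of the 9 genes (y axis) in the 3 comparisons, with the 95% confidence interval from limma. The intervals leave out 0 for Psmb8 and Tap1 between CCl4+Rot and CCl4 and for Psmb9 between CCl4+Rot and vehicle, before any adjustment for the number of probe sets.

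Across the members, the differences from vehicle under CCl4 were positive for 5 of 9 genes, with a median of 0.13 (0.13 over all genes, and -0.01 over genes present on every array). That median turned to -0.23, with 2 of 9 genes positive, where each array was centred on its median, which also placed the genes present on every array at -0.37. Relative to those genes the members stood at 0.14 under either scaling, which had to be so because centring shifts all genes of an array alike. They stood at 0.26 after quantile normalisation. Groups did not overlap for 0 members higher, where 12.5% of all genes and 12.1% of genes present on every array were. They did not overlap for 1 member lower, B2m, where 8.53% and 14.2% were. The median ran from 0.053 without CCl4 replicate 2 to 0.20 without vehicle replicate 3, and was 0.074 without CCl4 replicate 3 and 0.079 without vehicle replicate 4. The counts also depended on single livers. The number higher became 4 without CCl4 replicate 1 and 3 without vehicle replicate 3, and the number lower became 2 without vehicle replicate 5 or CCl4 replicate 2 and 3 without CCl4 replicate 3.

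Between CCl4+Rot and CCl4, 8 of 9 members had a positive difference, with a median of 0.15 (-0.05 over all genes, and 0.03 over genes present on every array). Without CCl4 replicate 1 the count was 5 of 9 and the median 0.077, and without CCl4 replicate 3 they were 7 of 9 and 0.25. Relative to the probe sets present on every array the median was 0.13, or 0.07 after quantile normalisation. Groups did not overlap for 2 members higher, Psmb8 and Tap1, against 5.57% of all genes and 8.13% of genes present on every array. They did not overlap for 0 lower, against 5.6% and 4.02%. Without CCl4 replicate 2 the number higher was 4, and without CCl4 replicate 1 or CCl4+Rot replicate 5 the number lower was 2 or 1.

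Between CCl4+Rot and vehicle, 8 of 9 members also had a positive difference, with a median of 0.22 (0.03 over all genes, and 0.01 over genes present on every array), or 0.38 without vehicle replicate 3 and 0.33 without CCl4+Rot replicate 6. Tap1, Tap2, Psmb9, Psmb10 and Psme2 were higher with no overlap, 5 of 9 where 15.2% of all genes and 16.8% of genes present on every array were. Lower with no overlap were 0, where 9.47% and 13.3% were. The comparisons share their groups, so these counts are not separate pieces of evidence.

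The spread inside the groups differed as well. The SD was smallest in CCl4+Rot for 6 members and in vehicle for 3, and largest in CCl4 for 6. Among the 7058 genes present on every array, the SD was smallest in CCl4+Rot for 41.6% and largest in CCl4 for 62.5%. A wide CCl4 group was thus a feature of most genes and not of the members alone.

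Blood cell markers did not share 1 pattern. All 4 common leukocyte markers, among them Ptprc (CD45), were present, and their summed linear signal ran from 2454 to 4031 in vehicle, 3541 to 4991 under CCl4 and 4889 to 6618 under CCl4+Rot. The 8 macrophage markers measured summed to 18648 to 24727 in vehicle, 18122 to 24398 under CCl4 and 25137 to 27360 under CCl4+Rot. Singly, 4 of them had a positive and 4 a negative difference for CCl4 minus vehicle, from -0.45 to 0.68. Of 9 T and NK cell markers measured, Cd3d, Cd2, Cd8a and Cd8b were called present on no array. The sums of the other 5 overlapped in all groups (445 to 693, 366 to 919 and 635 to 791). The 3 B and plasma cell markers measured were called present on only 5, 2 and 1 of the 9 arrays. They summed to 138 to 274 in vehicle, 238 to 565 under CCl4 and 203 to 223 under CCl4+Rot. The highest sum was that of CCl4 replicate 3, the array with the fewest present calls. Hepatocyte markers, which define the tissue, were all 8 present and summed to 198491 to 218204 in vehicle, 149237 to 219424 under CCl4 and 205235 to 218962 under CCl4+Rot. The lowest of these sums was again that of CCl4 replicate 3. The 6 stellate cell and myofibroblast markers summed to 6588 to 10700 in vehicle, 14780 to 25769 under CCl4 and 22362 to 26874 under CCl4+Rot. Most of that sum was Col3a1. Between CCl4+Rot and CCl4, 4 of the 6 had a positive difference and 2 a negative one, Acta2 (-0.28) and Des (-0.02). The part of any of these cells in the members' values was not tested.

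The rest of the proteasome stayed within a narrower band. Of the 11 other subunits of the 20S core, 0 were called by limma or its robust fit and 0 had an unadjusted p below 0.05 in any comparison, and their differences between CCl4+Rot and CCl4 lay between -0.11 (Psma7) and 0.14 (Psma1), with Psma5 at -0.08. Of the 21 genes of the 19S regulatory particle, again 0 were called and 0 had an unadjusted p below 0.05, with Adrm1, a ubiquitin receptor, at -0.35, Psmd8 at -0.27 and Psmd1 at 0.30. Of 7 other activators, inhibitors and assembly factors, 0 were called by either fit and 0 had an unadjusted p below 0.05. The values for CCl4+Rot minus CCl4 were 0.23 for Psmf1, an inhibitor of the proteasome, -0.21 for Psmg3, an assembly chaperone, and -0.10 for Pomp, which assembles the core.

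Helpers of peptide loading had the opposite median to the members between CCl4+Rot and CCl4. For the 8 measured, the median was 0.20 for CCl4 minus vehicle and -0.18 for CCl4+Rot minus CCl4, and 0 were called by limma or its robust fit. At an unadjusted limma p below 0.05 there were 2 and 0, where 13.5% and 5.5% of all genes passed. Sec61a1 and Sec61g, subunits of the channel into the endoplasmic reticulum, differed by 0.49 and 0.51 for CCl4 minus vehicle and by -0.34 and -0.27 for CCl4+Rot minus CCl4. Calr (calreticulin), the chaperone of the loading complex, differed by 0.30 and -0.25. Of 5 cytosolic peptidases, 0 were called by either fit. In each of these comparisons 1 had an unadjusted limma p below 0.05, where 13.5% and 5.5% of all genes did. That was Nrd1, at -0.44 and 0.42, and for CCl4+Rot minus CCl4 Tpp2 was at 0.22 and Npepps at -0.23.

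The interferon pathway and the class I regulators were listed as 22 genes, of which 21 were measured and 18 were called present on at least 3 arrays. limma called 0. Of the 18, a positive difference between CCl4+Rot and CCl4 was found for 15, with a median of 0.17. Of these, 5 had an unadjusted limma p below 0.05, where 5.5% of all genes did. Higher with no overlap were 6, where 5.57% of all genes and 8.13% of genes present on every array were. For CCl4 minus vehicle 4 of the 18 were positive, with a median of -0.12. Lower with no overlap were 5, where 8.53% of all genes and 14.2% of genes present on every array were. Irf7, an interferon regulatory factor, averaged 10.54 in vehicle, 9.37 under CCl4 and 11.31 under CCl4+Rot, a difference of 1.94 between CCl4+Rot and CCl4 (limma adjusted p 0.608; 0.111 in the robust fit). Stat2, part of the complex that binds the response element printed above, averaged 10.88, 10.04 and 10.71. Its difference between CCl4 and vehicle, -0.84, had an adjusted p of 0.218 in limma and 0.0247 in the robust fit, which called it lower, and CCl4+Rot exceeded CCl4 by 0.67 (adjusted p 0.652). Irf2 had -0.40 and 0.48. All 3 had the lowest mean in CCl4. They were named for the smallest limma p between CCl4+Rot and CCl4, a choice that favours this order. Ifng, the gene of interferon gamma, was called present on 2 arrays and is given no difference.

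The heavy chains that pair with B2m belong to the RT1 family, whose near-identical members can share probes, so each value is uncertain as to its gene. The list was drawn from the symbols on the array and held 9 genes, of which limma called 0. Between CCl4+Rot and CCl4 the differences were positive for 7 and negative for 2, RT1-CE16 at -1.27 and RT1-CE12 at -0.76, with a median of 0.37. The CCl4+Rot livers were wide apart for both, at 8.45, 10.02 and 7.87 for RT1-CE16 and 13.33, 13.39 and 11.42 for RT1-CE12. RT1-S3 averaged 12.69 in vehicle, 11.66 under CCl4 and 12.57 under CCl4+Rot. Its difference between CCl4 and vehicle, -1.03, had an adjusted p of 0.218 in limma and 0.0194 in the robust fit, which called it lower, and CCl4+Rot exceeded CCl4 by 0.91 (adjusted p 0.635). RT1-T24-4 had differences of -1.48 and 1.73, in which CCl4 replicate 1 read 7.41 and the other CCl4 livers 10.41 and 10.55. RT1-CE5 had another order, 9.77, 10.12 and 10.73, and differed between CCl4+Rot and CCl4 by 0.61 (adjusted p 0.752).

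**Figure D4:**
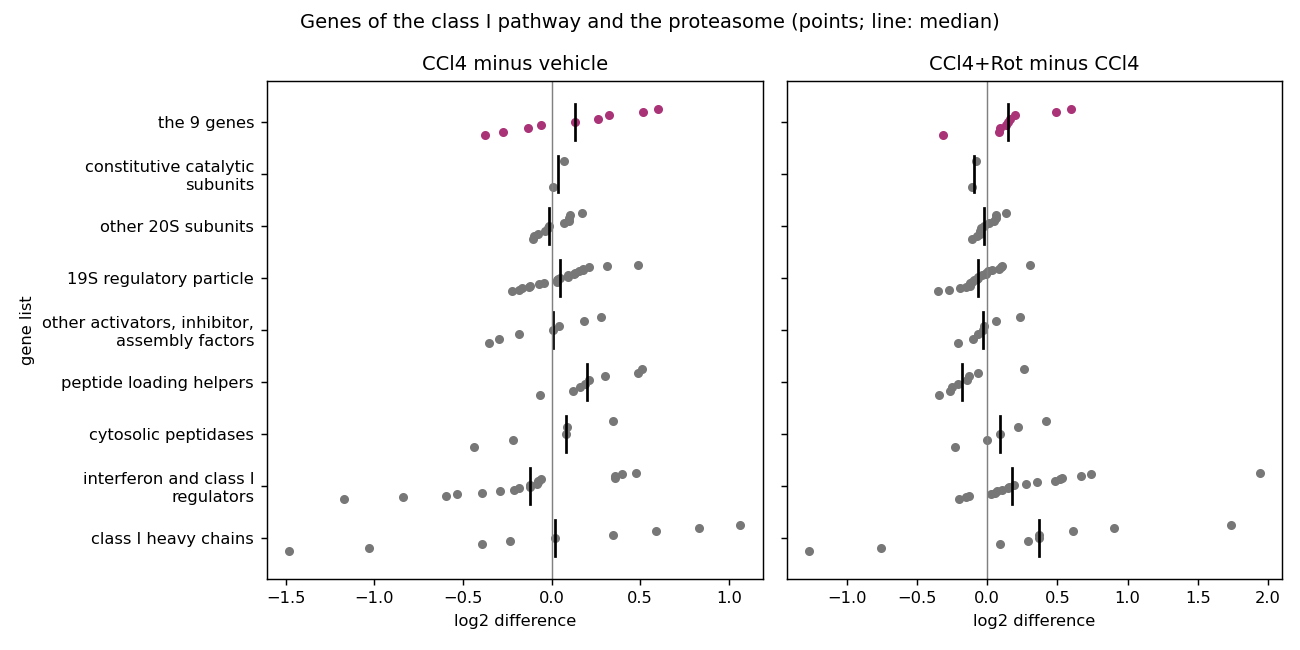
Log2 difference (x axis) of CCl4 minus vehicle and of CCl4+Rot minus CCl4 for the 9 genes and 8 lists of related genes (y axis), with 1 point per gene called present on at least 3 arrays and a line at the median of those points. The other 20S subunits lie between -0.11 and 0.14 for CCl4+Rot minus CCl4, and Irf7 is the point at 1.94 among the regulators.

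The mean centred profile of the 9 genes over the 9 arrays was compared with that of 7050 other genes present on every array. The 5 most like it were RT1-CE5 (Pearson r 0.973), Add3 (0.961), Fam65b (0.959), Sash3 (0.954) and Ldb2 (0.951). RT1-CE5 is a class I heavy chain, Add3 a protein of the membrane skeleton and Sash3 an adaptor of lymphocytes. All 5 had their lowest mean in vehicle and their highest in CCl4+Rot, an order that the choice by likeness favours. The members themselves did not share 1 profile. Between pairs of them Pearson r ran from -0.918 (B2m with Tapbp) to 0.912 (Psmb9 with Psmb10). The arrays share their scaling, and the values are a description.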

How the data were processed

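Total liver RNA of 9 rats was measured on an Affymetrix GeneChip rat genome array, 1 array per rat. The authors deposited a table of log2 signals with present, marginal and absent calls. The submitters' processing notes name MAS5 and affy, with no role or version. Per the values, each array is scaled so that the mean of its antilog signals, after trimming 2% at each end, is 500. Such scaling hides any shift common to all genes. Of 31099 probe sets, 57 controls were left out. A model with 3 group means was fitted to the 9 log2 columns with limma 3.58.1 (lmFit, eBayes) in R 4.3.3, and p-values were adjusted over 31042 probe sets by the Benjamini-Hochberg method. The methods name a 1.5-fold threshold for the arrays and a t-test for data in general, and a call here also needed an adjusted p below 0.05. Present calls from the table described detection and set which related genes were named. The fit was tested on simulated data. The number of arrays limits the precision. Alternatives were other scalings, filters on low signals, a robust fit, the methods' t-test, a replicate block, other fold limits, other rules for a gene's probe set and leaving out each array.

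The members and the gene lists were chosen with earlier results of these data known. The named genes were the 9 members, Psmb5, Psmb6 and Psmb7, from each other list the called genes or else the 3 with the smallest limma p between CCl4+Rot and CCl4 among those present on at least 3 arrays, and the 5 genes most like the members' mean profile. Ptprc, Col3a1, Acta2, Des, RT1-CE16, RT1-CE12 and genes named for absence were named after their values were seen. Symbols are those of the table. Promoters came from RefSeq (GRCr8) by symbol, and positions count the start site as 0. 1 item of the pathway is not reported here.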

Additional observations from a re-analysis of the deposited data

How the results depend on the processing

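With 3 rats a group, differences smaller than the intervals given could not be resolved, and B2m read near the top of the scale while Tap1 was not called present on 1 array. Of 27 member differences, 17 kept their sign under all alternatives. Leaving out the t-test, adjusted p-values ran from 0.155 to 1.00. The unadjusted t-test with 1.5-fold passed 1 member between CCl4+Rot and CCl4, and 265 probe sets higher and 586 lower of 31042. Centring each array on its median turned the CCl4 minus vehicle differences of Psmb10 (-0.10), Psme2 (-0.23) and Tap2 (-0.037), turned Psme1 between CCl4+Rot and vehicle (-0.085), and moved the members' median to -0.23 for CCl4 minus vehicle and 0.40 for CCl4+Rot minus CCl4. It moved the median of genes present on every array to -0.37 and 0.27 in those comparisons. Centring on probe sets present on all arrays gave -0.011 for Psme1 between CCl4+Rot and vehicle, and quantile normalisation gave 0.10 for CCl4 minus vehicle. Under both of these, non-overlapping members numbered 1 higher and 0 lower for CCl4 minus vehicle and 1 lower for CCl4+Rot minus CCl4. Averaging a gene's probe sets gave 0.42 and -0.34 for Psme1 in those comparisons, which takes in a probe set absent everywhere. It gave 0.0089 for B2m between CCl4+Rot and vehicle and a members' median of 0.26 for CCl4 minus vehicle. Leaving out 1 array at a time, the differences between CCl4+Rot and CCl4 ran from -0.085 to 0.25 for Psmb10, -0.024 to 0.26 for Psmb9, -0.059 to 0.41 for Tap2 and -0.0036 to 0.18 for Psme1, and Psme1 ran from -0.15 to 0.029 for CCl4 minus vehicle. The members' median between CCl4+Rot and vehicle ran from 0.20 to 0.38. In these runs, added after the data were seen, non-overlapping members numbered 0 to 4 higher and 1 to 3 lower for CCl4 minus vehicle, and 2 to 4 higher and 0 to 2 lower for CCl4+Rot minus CCl4. The cause was not tested. Vehicle and CCl4+Rot share animal numbers 4 and 5 in the labels, but their deviations correlated at only 0.035 and 0.068, and a replicate block on that number left the members called at 0. Over all probe sets, calls between CCl4 and vehicle numbered 0 higher and 0 lower in limma but 215 and 133 in the robust fit, and between CCl4+Rot and vehicle 5 and 3 against 214 and 27.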
